A study of Mus musculus with 4 samples.

Results

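The genes described here are 8 genes for intermediate filament proteins, taken by symbol from the 27999 genes of the deposited matrix: Nefl, Nefm, Nefh, Ina, Prph, Vim, Gfap and Nes. Nefl, Nefm and Nefh encode the light, medium and heavy neurofilament subunits, called the triplet below. Ina encodes alpha-internexin and Prph encodes peripherin, a neuronal filament protein that is not the photoreceptor protein of the gene Prph2. Vim encodes vimentin, Gfap the glial fibrillary acidic protein and Nes nestin. The data are single-cell RNA counts from retinas of C57BL/6 mice aged 3 months, sorted for the GFP of a Brn3b reporter (Brn3b is the protein of Pou4f2, a transcription factor of retinal ganglion cells, RGC). The labels name 4 retinas in 1 group, with no untreated or mutant arm, and all cells compared below carry the reporter and passed the same sort. No barcode is tied to a retina, so the matrix is 1 pooled sample without replicates. Values therefore carry 95% intervals for counting error only, and no test between animals could be made.

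Neurofilaments are heteropolymers: the light subunit forms the core with the medium and heavy subunits, whose long tails project from the filament, and alpha-internexin and peripherin can join the same polymer. They fill large axons, add to axon calibre, and are made in neurons that send long projections, of which RGC are the output neurons of the retina. Vimentin is the usual filament protein of Müller glia and of horizontal cells of the rodent retina, Gfap is made by retinal astrocytes and by Müller glia under stress, and nestin marks progenitor cells. Antibodies to the heavy subunit are used to stain large RGC of the alpha kind.

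Classes were set by the UMIs (unique molecular identifiers, 1 per captured molecule) of other genes, none of them a filament gene. An RGC barcode had at least 1 UMI of Slc17a6 (vesicular glutamate transporter), at least 3 of Rbpms and Slc17a6 together, and at most 1 of Lhx1. A horizontal barcode had at least 2 UMIs of Lhx1 and 0 of Slc17a6. An amacrine barcode had at least 3 of Gad1 and Slc6a9 together, and a Müller barcode at least 3 of Rlbp1 and at least 3 of Slc1a3. Of 2636 barcodes kept, 912 were RGC, 404 horizontal, 121 amacrine and 204 Müller, and 9 that met more than 1 rule were left out of all 4 classes. Bipolar (324), cone (98) and microglia (146) barcodes, set by Trpm1 and Grm6, by Arr3 and Gnat2 and by C1q genes, served as further classes.

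The whole matrix held 31361961 UMIs, between 3198 and 53709 per barcode. Median depth was 15825.5 UMIs in RGC, 11168.5 in horizontal, 5731 in amacrine and 4654 in Müller barcodes, and 3748.5 in microglia. Median mitochondrial shares were 3.94%, 6.86%, 3.37% and 6.60% in RGC, horizontal, amacrine and Müller barcodes. Each of the RGC, horizontal, amacrine and Müller marker lists had its highest sum in the class of that name. The lists include the genes of the class rules, so this outcome was partly set by the rules. The RGC list of 9 genes had 8602 CPM (UMIs of a gene scaled to 1000000 UMIs in all) in RGC, against 269 to 1290 CPM in the other classes. The horizontal list had 8615 CPM in horizontal barcodes and the Müller list 40215 CPM in Müller barcodes. The amacrine list had 3461 CPM in amacrine barcodes, 1650 in horizontal and 769 in Müller barcodes. Amacrine barcodes also held 1346 CPM of rod, 1156 CPM of bipolar, 868 CPM of cone and 336 CPM of microglia markers. In Müller barcodes, endothelial markers came to 514 CPM, of which Kdr made up 508, with Cldn5 at 3.02 and Pecam1 at 2.01 CPM. Levels below are CPM of the UMIs summed over a class. A UMI counts the 3′ end of a molecule once, so values were not divided by gene length, and capture can still differ between genes.

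By the GENCODE annotation of GRCm38 all 8 genes are protein coding. Nefl (ENSMUSG00000022055) lies at chr14:68083863-68089095 on the plus strand and Nefm (ENSMUSG00000022054) at chr14:68082590-68124846 on the minus strand, with 30187 bases between their main transcripts. A longer Nefm model overlaps Nefl on the opposite strand. Whether the counting used strand is not given in the sources used here, so molecules from that stretch cannot be told apart. Nefh (ENSMUSG00000020396) lies at chr11:4938754-4948064 and Ina (ENSMUSG00000034336) at chr19:47014698-47025327, where Nt5c2 overlaps it on the other strand. Prph (ENSMUSG00000023484) lies at chr15:99055174-99058978, Vim (ENSMUSG00000026728) at chr2:13573927-13582826, Gfap (ENSMUSG00000020932) at chr11:102887336-102900912 and Nes (ENSMUSG00000004891) at chr3:87971078-87980451.

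RefSeq promoter windows (GRCm38.p6, the 250 bases before the gene's start, 5′ to 3′) were found for 5 of the 8 members: Ina, Prph, Vim, Gfap and Nes. Those of Prph and Ina are shown because, among RGC barcodes, Prph had the highest variance over mean of the neuronal members and Ina the lowest. Prph is at chr15:99054924-99055173 and Ina at chr19:47014431-47014680, both on the plus strand. Capitals mark the matches to 3 of the 4 motifs searched on both strands. The GC box was searched as GGGCGG, which reads CCGCCC on the other strand, and the T-box core as GGTGTG, which reads CACACC there. The motif TATAAA was searched as the box of that name, and the Onecut core as ATTGAT, which had no match in either window.
Prph: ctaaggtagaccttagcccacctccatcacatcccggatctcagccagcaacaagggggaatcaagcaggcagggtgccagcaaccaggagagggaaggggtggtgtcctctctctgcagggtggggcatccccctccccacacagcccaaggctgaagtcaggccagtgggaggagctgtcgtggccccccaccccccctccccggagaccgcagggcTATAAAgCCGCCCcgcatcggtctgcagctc
Ina: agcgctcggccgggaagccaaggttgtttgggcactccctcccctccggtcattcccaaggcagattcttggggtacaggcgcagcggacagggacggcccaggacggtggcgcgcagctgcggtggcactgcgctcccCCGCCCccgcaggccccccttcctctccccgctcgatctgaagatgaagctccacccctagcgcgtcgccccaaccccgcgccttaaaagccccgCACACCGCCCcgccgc
The Prph window held TATAAA starting 31 bases before the start and 1 GC box 24 bases before it, and it had 65.2% G and C. The Ina window held no TATAAA, 2 GC boxes starting at 111 and 12 bases before the start, and CACACC at 16 bases before it, which overlaps the nearer GC box. It had 70.8% G and C. Of 32851 such windows in the table, 12.4% held TATAAA, 32.7% the GC box, 16.3% the T-box core and 6.72% the Onecut core on either strand. These matches describe letters only.

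RGC barcodes carried the highest summed level of the neurofilament triplet of the 7 classes. The triplet came to 2704 CPM in RGC (2678 to 2730), 520 in horizontal (499 to 541), 158 in amacrine (131 to 189) and 77.5 in Müller barcodes (61.2 to 96.9). Among genes with at least 100 UMIs over both groups, 6 of the 8 members could be set between RGC and each of the other classes, and Gfap and Nes were below that minimum. Against horizontal barcodes, 4 members were higher in RGC by 2-fold or more, where 19% of the 10246 genes compared were, and 1 was lower, where 8.78% were. Against amacrine barcodes 4 were higher (12.2% of 9770 genes) and 0 lower (7.99%). Against Müller barcodes 5 were higher (30.7% of 10003 genes) and 1 lower (13.9%). The median gene was itself shifted by 0.12 on the log2 scale against horizontal and by 0.35 against Müller barcodes, toward RGC.

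**Figure D1:**
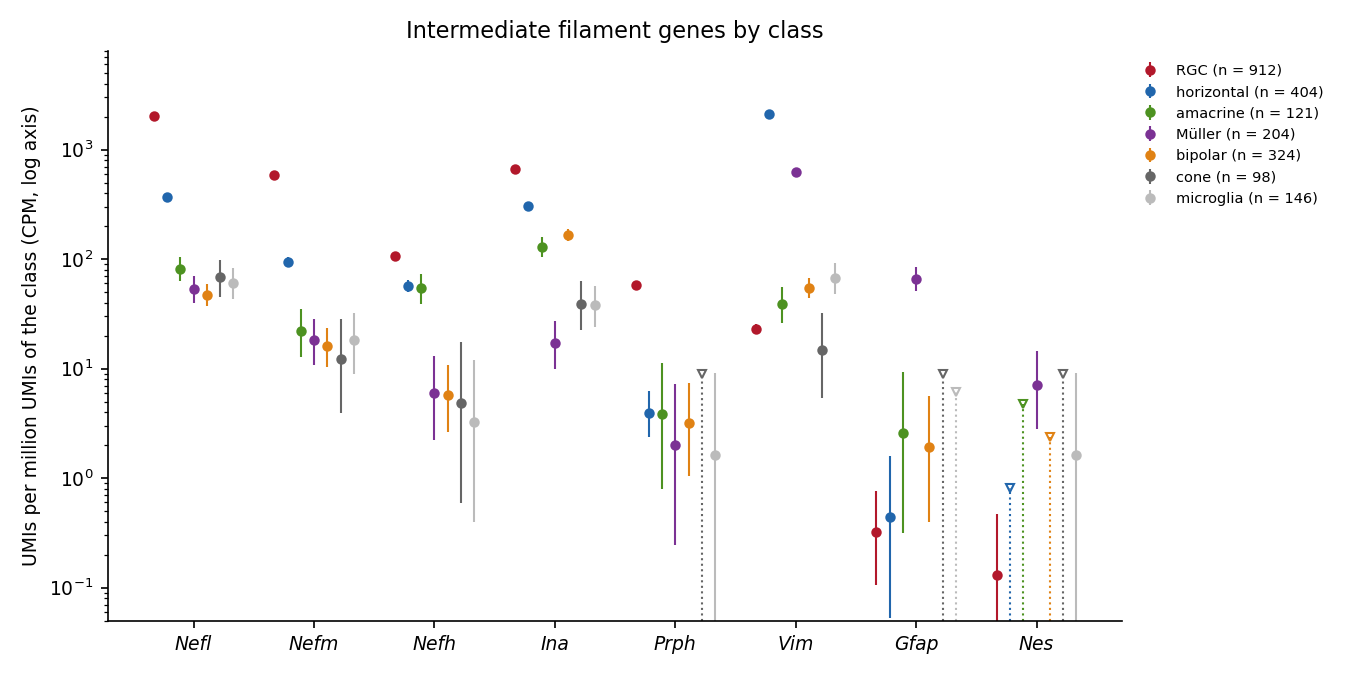
Level of each of the 8 genes (CPM of summed UMIs, log axis) in 7 classes of barcodes, with 95% intervals for counting error; open triangles mark upper limits where a class had 0 UMIs. Nefl, Nefm, Nefh, Ina and Prph are highest in RGC, Vim is highest in horizontal barcodes at 2108 CPM, and Gfap is highest in Müller barcodes at 66.4 CPM.

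Nefl, the light subunit on which the polymer is built, was the most abundant member in RGC. A barcode held a median of 29 Nefl UMIs in RGC (quartiles 19 and 43, highest 209), against 4 in horizontal barcodes (quartiles 2 and 6, highest 14). Its level was 2016 CPM in RGC (1994 to 2039), 369 in horizontal (351 to 387), 81.8 in amacrine (62.8 to 105) and 53.3 in Müller barcodes (40.0 to 69.8). The RGC quartiles lay wholly above the highest horizontal barcode. The ratio of RGC to horizontal was 5.47 (5.20 to 5.75), that of RGC to amacrine 24.7 (19.3 to 32.1) and that of RGC to Müller 37.8 (28.9 to 50.5). The last was 78.4 with a mitochondrial maximum of 5%, which left few Müller barcodes.

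Nefl in the classes other than RGC and horizontal was close to the level in microglia, cells not known to make neurofilaments, at 60.8 CPM (42.8 to 83.8). Bipolar (47.3 CPM), cone (68.5 CPM) and Müller barcodes had intervals that overlapped that of microglia, and so did amacrine barcodes. With each barcode thinned to 3000 UMIs, Nefl was found in 98.6% of RGC, 61.4% of horizontal (56.4% to 66.2%), 23.1% of amacrine (16.0% to 31.7%) and 15.2% of Müller barcodes (10.6% to 20.9%). The share in microglia was 15.1% (9.69% to 21.9%), which is read as background, the source of which was not tested. At full depth the shares were 99.8% of RGC, 95.8% of horizontal, 37.2% of amacrine and 22.1% of Müller barcodes, against 21.9% of microglia. Nefl in horizontal barcodes thus lay above that background, and Nefl in Müller barcodes was at it.

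Nefm, the medium subunit, followed Nefl at a lower level. RGC barcodes held a median of 7 Nefm UMIs (quartiles 4 and 13, highest 66) and horizontal barcodes a median of 1 (highest 6). The level was 581 CPM in RGC (570 to 594), 94.2 in horizontal (85.5 to 104), 22.1 in amacrine (12.9 to 35.3) and 18.1 in Müller barcodes (10.7 to 28.6). Microglia were at 18.1 CPM (9.03 to 32.4), level with the amacrine and Müller values. RGC exceeded horizontal barcodes 6.17-fold (5.60 to 6.82) and amacrine barcodes 26.4-fold (16.5 to 45.3).

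The ratios to amacrine barcodes depend on how barcodes that met several rules were treated, of which 5 met both the RGC and the amacrine rule. With barcodes that met several rules kept, the ratio of RGC to amacrine was 6.79 for Nefl, 4.60 for Nefm and 5.61 for the triplet, in place of 17.1 for the triplet without them (14.3 to 20.6). Direction and the 2-fold call were kept.

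Nefh, the heavy subunit, did not follow the other triplet genes. Its level was 107 CPM in RGC (102 to 112), 56.7 in horizontal (49.97 to 64.1), 54.5 in amacrine (39.3 to 73.7) and 6.04 in Müller barcodes (2.22 to 13.1). Microglia were at 3.29 CPM (0.398 to 11.9), so the intervals of horizontal and amacrine barcodes lay above that background. The ratio of RGC to horizontal was 1.88 (1.65 to 2.15) and that of RGC to amacrine 1.96 (1.44 to 2.73), both under 2-fold. Under alternatives the value against amacrine ranged from 1.47 to 2.38 and passed 2-fold in several, among them thinning (2.38), and the value against horizontal was 2.11 with doubled thresholds. A barcode held a median of 1 Nefh UMI in RGC (highest 29) and 0 in horizontal barcodes (highest 5). At 3000 UMIs Nefh was found in 22.3% of RGC, 14.9% of horizontal (11.5% to 18.7%) and 8.26% of amacrine barcodes (4.03% to 14.7%), against 1.37% of microglia (0.166% to 4.86%).

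In amacrine barcodes the 42 Nefh UMIs lay in 15 of 121 barcodes, with 1 to 5 UMIs each. Of these 15, 9 had no Nefl UMI, 10 had no Nefm UMI and 14 had Gad1, which encodes a GABA-synthesising enzyme. The RGC rule gene Slc17a6 had 1 UMI in 4 of the 15 and none in the others. Gad1 is a gene of the amacrine rule, and barcodes that also met the RGC rule were left out. The Gad1 and Slc17a6 counts are therefore partly set by the rules. Their depth ran from 4376 to 12649 UMIs, mostly above the amacrine median of 5731.

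Ina, alpha-internexin, was higher in RGC than in every other class, with a smaller gap to horizontal barcodes than Nefl or Nefm. RGC barcodes held a median of 10 Ina UMIs (quartiles 6 and 15, highest 58) and horizontal barcodes a median of 3 (quartiles 2 and 5, highest 11). The level was 672 CPM in RGC (659 to 685), 309 in horizontal (293 to 325), 165 in bipolar (146 to 187), 130 in amacrine (106 to 158) and 17.1 in Müller barcodes (9.97 to 27.4). The neighbours bipolar and amacrine had overlapping intervals. Cone (39.2 CPM) and microglia (37.8 CPM, 24.0 to 56.7) overlapped each other and, with Müller barcodes, form the low end. RGC exceeded horizontal barcodes 2.18-fold (2.06 to 2.30), amacrine 5.18-fold (4.25 to 6.37) and Müller 39.3-fold (24.5 to 67.4). At 3000 UMIs Ina was found in 85.5% of RGC, 59.4% of horizontal and 24.0% of amacrine barcodes (16.7% to 32.6%), against 7.53% of microglia (3.82% to 13.1%).

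Prph, peripherin, was at or near 0 outside RGC. Its level was 57.7 CPM in RGC (54.0 to 61.6), 3.97 in horizontal (2.35 to 6.28) and 2.01 in Müller barcodes, and 3.89 in amacrine barcodes from 3 UMIs. Microglia had 1 UMI (1.64 CPM). At 3000 UMIs Prph was found in 7.02% of RGC (5.45% to 8.87%), against 0.248% of horizontal barcodes and 0.685% of microglia, so the horizontal share is read as background. The 18 UMIs in horizontal barcodes lay in 17 barcodes with at most 2 each. The ratio of RGC to horizontal was 14.5 (9.14 to 24.6) and was 65.1 after thinning, where the horizontal count is near 0, and 28.2 with a mitochondrial maximum of 5%. Against the few UMIs of amacrine and Müller barcodes it was 14.8 (5.05 to 72.0) and 28.7 (7.91 to 237), and after thinning 9.75 and 16.4.

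The glial and progenitor members ran the other way. Vim, which encodes vimentin, had a median of 0 UMIs and a highest value of 7 in RGC barcodes. Horizontal barcodes had a median of 23 (quartiles 16 and 31, highest 66), with a UMI in 100% of the 404. The level was 23.1 CPM in RGC (20.8 to 25.7), against 2108 in horizontal (2066 to 2150) and 619 in Müller barcodes (571 to 670), so horizontal barcodes had 91.1 times and Müller barcodes 26.7 times the RGC level. As a ratio of RGC to Müller this is 0.0374 (0.0327 to 0.0427), and 0.0219 with a mitochondrial maximum of 5%. A Müller barcode held a median of 2 Vim UMIs (highest 57), at a lower depth than horizontal barcodes.

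Vim in RGC as a class was near the level in cones, at 14.7 CPM (5.39 to 32.0), and differed between RGC subsets, as given below. At 3000 UMIs it was found in 6.80% of RGC (5.25% to 8.63%), against 100% of horizontal and 78.4% of Müller barcodes (72.1% to 83.9%), and in 9.59% of microglia (5.34% to 15.6%) and 5.10% of cones. Microglia themselves had 41 Vim UMIs, 27 of them in 1 barcode, so they are not used as a background for Vim. Amacrine barcodes had 38.9 CPM (26.3 to 55.6) from 30 UMIs, 10 of them in 1 barcode, and the ratio of RGC to amacrine was 0.594 (0.409 to 0.894). It was 0.376 with no cell filter and 0.366 with barcodes meeting several rules kept. The amacrine barcode with 10 Vim UMIs was also among those with Nefh. That barcode held 24 UMIs of Calb1, a gene of the horizontal list, and 1 of Lhx1.

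Gfap, the astrocyte filament gene, had 5 UMIs in the 912 RGC barcodes, 2 in horizontal, 2 in amacrine and 66 in Müller barcodes. The level was 0.324 CPM in RGC (0.105 to 0.756), against 66.4 CPM in Müller barcodes (51.4 to 84.5), where all 66 UMIs lay in 6 of 204 barcodes, or 2.94%. Those barcodes had 23, 20, 15, 4, 3 and 1 Gfap UMIs. In the same order they had 47, 1, 24, 16, 0 and 0 UMIs of S100b, an astrocyte marker, and 0, 0, 2, 2, 0 and 0 UMIs of Pax2, a transcription factor of retinal astrocytes. Over the Müller class, the astrocyte list came to 228 CPM with a UMI for 4 of 5 markers and Gja1 at 0, against 0.882 to 16.6 CPM in the other classes. The ratio of RGC to Müller was 0.00488 (0.00153 to 0.0120) and ran from 0.00205 to 0.0172 over the alternatives. The other Müller barcodes had no Gfap UMI.

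Nes, nestin, had 2 UMIs in RGC (0.130 CPM), 0 in horizontal and amacrine barcodes and 7 in Müller barcodes (7.05 CPM, 2.83 to 14.5). The 7 UMIs lay in 6 Müller barcodes, each with 64 to 105 UMIs of Glul, the glutamine synthetase of Müller glia. At 3000 UMIs Nes was found in 2.45% of Müller barcodes (0.801% to 5.63%) and in 0.685% of microglia (0.017% to 3.76%), and these intervals overlap. A difference of Nes between classes other than RGC and Müller was not detectable at this depth. The ratio of RGC to Müller was 0.0184 (0.00187 to 0.0966).

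The proportions of the 3 subunits differed between classes mainly in the share of Nefh. Nefl, Nefm and Nefh made up 74.6%, 21.5% and 3.94% of triplet UMIs in RGC (Nefh 3.76% to 4.13%). They made up 71.0%, 18.1% and 10.9% in horizontal barcodes (Nefh 9.68% to 12.2%). In amacrine barcodes they made up 51.6%, 13.9% and 34.4%, with Nefh at 26.1% to 43.6% of only 122 UMIs. Nefl and Nefm levels in amacrine barcodes had intervals that overlapped those of microglia. The Nefh share there is therefore not read as a subunit composition of amacrine cells. The Nefh intervals of RGC, horizontal and amacrine barcodes did not overlap. In microglia the shares were 74%, 22% and 4% (Nefh 0.488% to 13.7%), which is the composition of RGC within counting error, although Ina per 100 triplet UMIs was higher in microglia (46, 26.8 to 76.8) than in RGC. Those of Müller (7.79%, 2.91% to 16.2%) and bipolar barcodes (8.33%, 3.88% to 15.2%) overlapped those of microglia and of horizontal barcodes.

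**Figure D2:**
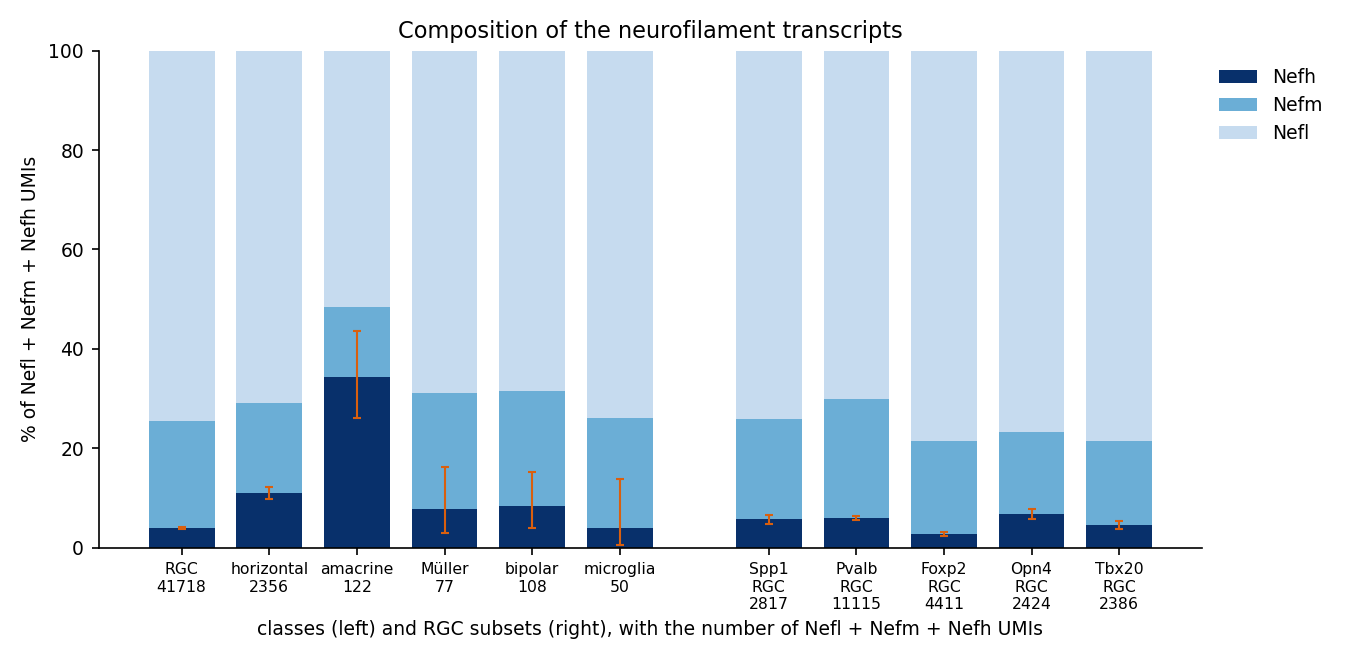
Share (percent) of Nefl, Nefm and Nefh in the triplet UMIs of each class and of RGC subsets, with the 95% interval of the Nefh share and the number of triplet UMIs under each bar. Nefh takes 3.94% in RGC, 10.9% in horizontal and 34.4% in amacrine barcodes, and 5.87% in Pvalb RGC against 2.70% in Foxp2 RGC. In amacrine barcodes Nefl and Nefm were near the level of microglia.

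The balance of Nefl to Nefm differed less between RGC and horizontal barcodes than that of Nefl to Nefh. There were 3.47 Nefl UMIs per Nefm UMI in RGC (3.39 to 3.55) and 3.92 in horizontal barcodes (3.52 to 4.36). The value was 3.71 in amacrine barcodes (2.14 to 6.76) and 3.36 in microglia (1.68 to 7.31). Nefl and Nefm in amacrine barcodes were near the level of microglia, so ratios to them there are not read as a subunit balance. Nefl per Nefh was 18.9 in RGC, 6.51 in horizontal and 1.50 in amacrine barcodes. Ina per 100 triplet UMIs was 24.8 in RGC (24.3 to 25.4), 59.4 in horizontal (55.6 to 63.5) and 82.0 in amacrine barcodes. In bipolar barcodes it was 240 (191 to 303), against 46 in microglia, so Ina there was not in the ratio to the triplet that RGC have.

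Among RGC barcodes, the members differed in how evenly they were spread. With the 723 RGC barcodes of at least 12000 UMIs thinned to that depth, Nefl ran from 5 to 64 UMIs with a median of 23 (mean 23.9 ± 9.08, SD over barcodes). Nefm ran from 0 to 24 with a median of 6 (6.69 ± 4.45) and Nefh from 0 to 9 with a median of 1 (1.20 ± 1.49). Ina ran from 0 to 22 with a median of 8 (7.95 ± 3.32). The Fano factor, variance over mean, which is 1 for pure counting noise, was 3.45 for Nefl, 2.95 for Nefm, 1.84 for Nefh and 1.39 for Ina. For genes that vary beyond counting noise it also grows with the mean. Its order over the triplet is therefore not an order of evenness. It was 12.4 for Prph and 0.896 for Vim.

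Nefl and Nefm moved together over these barcodes, with a Spearman rank correlation of 0.39. It was 0.29 for Nefm with Nefh, 0.17 for Nefl with Nefh and between 0.15 and 0.18 for Ina with each triplet gene. Prph had a rank correlation from -0.09 to 0.08 with the other members. The barcodes share 1 library and, after thinning, 1 depth, but they had not had the same depth before it. The rank correlation with the total UMIs before thinning was 0.34 for Nefl, 0.31 for Nefm, 0.34 for Nefh and 0.14 for Ina. The part of cell size or capture in these values was not tested.

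**Figure D3:**
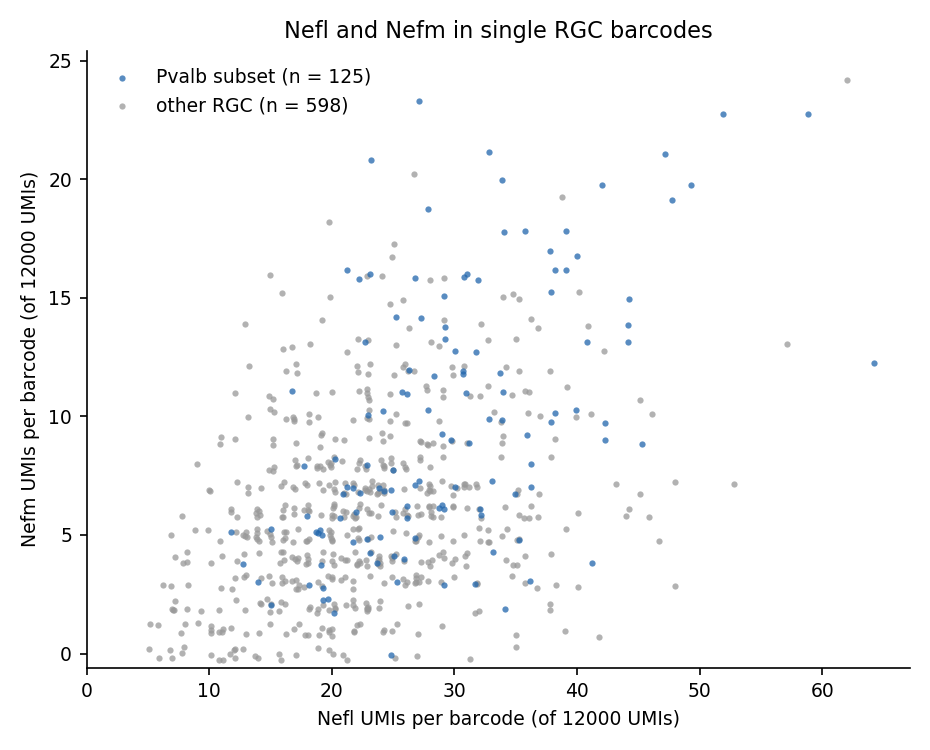
Nefl UMIs against Nefm UMIs in 723 RGC barcodes thinned to 12000 UMIs, with a small jitter, for the 125 Pvalb RGC and the 598 other RGC. The points rise together (rank correlation 0.39 over all 723), and Pvalb RGC have medians of 29 Nefl and 9 Nefm UMIs, against 22 and 6 in other RGC.

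Of 8761 genes with a UMI in at least 10% of the 723 barcodes, those most like Nefl were Pkm (pyruvate kinase, rank correlation 0.48), Atp5b (an ATP synthase subunit, 0.46), Nefm (0.39), Uqcrc1 (a complex III subunit, 0.38) and Atp5a1 (0.38). Most like Nefm were Nefl (0.39), Ttc3 (0.38), Cplx1 (complexin, of synaptic release, 0.38), Kcna1 (a potassium channel, 0.36) and Hspa8 (a chaperone, 0.33). For Nefh they were Atp1b1 (a sodium pump subunit, 0.31), Nefm (0.29), Syt2 (a synaptotagmin, 0.29) and Kcna1 (0.28). Kcna1 and Syt2 each stood among the leading genes of more than 1 member. For Ina the highest were Ghitm (0.21), Rtn4 (0.21), Psap (0.20), Rab6b (0.20) and Syt2 (0.20), values too weak in sparse counts to single out. For Prph they were 1700011I03Rik (0.39), Ctxn3 (0.37), Atp2b4 (a calcium pump, 0.37), Vat1l (0.37) and Opn4 (melanopsin, 0.36).

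RGC subsets were then set by further genes: at least 3 UMIs of Spp1 (osteopontin, a marker of alpha RGC, 32 barcodes), at least 15 of Pvalb (parvalbumin, a calcium-binding protein, 133 barcodes) and at least 2 of Foxp2 (a transcription factor of the F-RGC group, 95 barcodes). Each was compared with all RGC below its threshold, so the 3 comparisons share most of their other RGC. Spp1 and Pvalb had 8 barcodes in common, Pvalb and Foxp2 12, and Spp1 and Foxp2 0. The thresholds are in raw UMIs and favour deep barcodes. Median depth was 26504 UMIs in Spp1 RGC against 15544.5 in other RGC, 23385 in Pvalb RGC against 15132, and 15379 in Foxp2 RGC against 15872. Markers of other cell types moved with these subsets as well. The horizontal list came to 756 CPM in Spp1 RGC, 701 in Pvalb RGC and 237 in Foxp2 RGC, against 384 over all RGC, with 5, 5 and 3 of its 5 genes found. Calb1, which encodes the calcium-binding protein calbindin, made up 553 CPM of it in Spp1 RGC and 473 CPM in Pvalb RGC, while Lhx1, limited by the RGC rule, had 1 UMI in Spp1 RGC and 3 in Pvalb RGC, and Onecut1 4 and 3 UMIs. The astrocyte list came to 71.6 CPM in Spp1 RGC, 38.0 in Pvalb RGC and 8.34 in Foxp2 RGC, against 16.6 over all RGC, and was mostly S100b (66.0 CPM in Spp1 RGC and 35.1 CPM in Pvalb RGC). The part of these markers in the values below was not tested.

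Pvalb RGC carried more of all 3 neurofilament subunits, most of all the heavy one. At 12000 UMIs, Pvalb RGC had a median of 29 Nefl UMIs, against 22 in other RGC, 9 Nefm UMIs against 6, and 2 Nefh UMIs against 1. Nefh was found in 84.8% of Pvalb RGC and 53.7% of other RGC. The distributions overlapped widely for each gene. At full depth the level of Nefl was 2467 CPM in Pvalb RGC and 1900 in other RGC, a ratio of 1.30 (1.27 to 1.33). Nefm was 844 against 514 CPM, a ratio of 1.64 (1.57 to 1.72). Nefh was 207 CPM (191 to 223) against 80.9 CPM, a ratio of 2.56 (2.31 to 2.82), and 2.57 after thinning. Ina was 713 against 661 CPM, a ratio of 1.08 (1.03 to 1.13), with a median of 8 UMIs in both groups at 12000.

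Of the 6 members with enough UMIs, 1 (Nefh) was 2-fold or more higher in Pvalb RGC, where 0.832% of 9619 genes were, and 1 (Prph) was lower, where 1.94% were. Prph was 6.65 CPM in Pvalb RGC and 70.8 in other RGC, a ratio of 0.0938 (0.0578 to 0.144). Vim was 0.738 (0.546 to 0.982) of its level in other RGC. Its levels of 18.0 CPM in Pvalb RGC and 24.5 CPM in other RGC both lay within the interval of cones (5.39 to 32.0). The triplet as a whole was 3518 CPM in Pvalb RGC and 2495 in other RGC, a ratio of 1.41 (1.38 to 1.44). Its Nefh share was 5.87% (5.44% to 6.33%) against 3.24%, and there were 2.92 Nefl UMIs per Nefm UMI against 3.70. Taken per barcode with at least 20 triplet UMIs, the median Nefh share was 5.16% in 130 Pvalb RGC and 2.22% in 624 other RGC. Ina per 100 triplet UMIs was 20.3 in Pvalb RGC and 26.5 in other RGC.

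**Figure D4:**
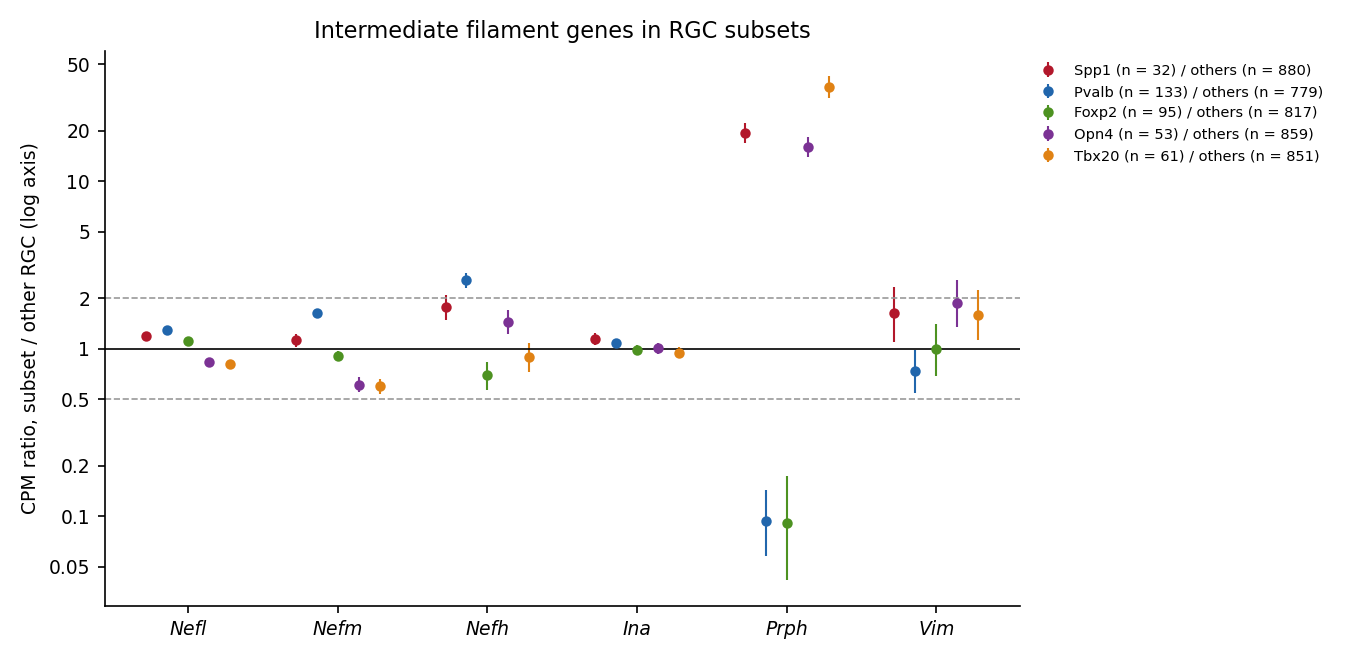
Ratio of the CPM level in Spp1, Pvalb, Foxp2, Opn4 and Tbx20 RGC to that in the other RGC (log axis) for the filament genes, with 95% intervals and lines at 1, 2 and 0.5. Nefh is 2.56 in Pvalb RGC and 0.693 in Foxp2 RGC, and Ina lies between 0.945 and 1.14 in all subsets drawn. Prph is 36.4 in Tbx20, 19.4 in Spp1 and 16.0 in Opn4 RGC, and under 0.1 in Pvalb and Foxp2 RGC.

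Spp1 RGC differed from other RGC mainly in Prph, and less in the triplet genes. Of these 32 barcodes, 24 also had at least 5 UMIs of Opn4 and 22 at least 2 of Tbx20. The subset is therefore mixed and is not read as alpha RGC alone. At 12000 UMIs the median of Nefl was 27 UMIs in Spp1 RGC and 23 in other RGC, that of Nefm 6.5 against 6 and that of Nefh 1 in both. The level of Nefl was 2374 CPM in Spp1 RGC and 1995 in other RGC, a ratio of 1.19 (1.14 to 1.24), and that of Nefm 648 against 577, a ratio of 1.12 (1.03 to 1.22). Ina was 763 against 666 CPM, a ratio of 1.14 (1.06 to 1.24). For Nefm and Ina the interval included 1 after thinning. Vim, at 36.4 CPM in Spp1 RGC and 22.3 in other RGC, had a ratio of 1.63 (1.10 to 2.35), and 1.47 after thinning (0.768 to 2.57).

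Nefh in Spp1 RGC depended on depth. It was 181 CPM in Spp1 RGC and 102 in other RGC, a ratio of 1.77 (1.49 to 2.09), but 1.26 after thinning, with an interval of 0.924 to 1.69. A single barcode held 29 of the 159 Nefh UMIs of Spp1 RGC, and without it the ratio was 1.54. The Nefh share of the triplet was 5.64% in Spp1 RGC (4.82% to 6.56%) and 3.82% in other RGC, and 4.10% in Spp1 RGC after thinning. Of the 6 members with enough UMIs, 1 was 2-fold or more higher in Spp1 RGC (2.2% of 9619 genes) and 0 lower (5.57%).

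Foxp2 RGC had a little more Nefl and less Nefh than other RGC. At 12000 UMIs the median of Nefl was 26.5 UMIs in Foxp2 RGC and 23 in other RGC, that of Nefm 6 in both, and that of Nefh 0 against 1. Nefh was found in 47.7% of Foxp2 RGC and 60.6% of other RGC. The level of Nefl was 2219 CPM in Foxp2 RGC and 1993 in other RGC, a ratio of 1.11 (1.07 to 1.15). Nefm was 533 against 587 CPM, a ratio of 0.908 (0.844 to 0.975), and Nefh 76.3 against 110 CPM, a ratio of 0.693 (0.570 to 0.836). Ina did not differ beyond counting error, at a ratio of 0.980 (0.918 to 1.05). Of the 6 members with enough UMIs, 0 were 2-fold or more higher in Foxp2 RGC (0.645% of 9619 genes) and 1, Prph, was lower (3.63%). Prph was 5.77 CPM in Foxp2 RGC and 63.5 in other RGC, a ratio of 0.0908 (0.0414 to 0.173).

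Set in order by level at full depth, Nefh was 207 CPM in Pvalb RGC (191 to 223), 181 in Spp1 RGC (154 to 211), 149 in RGC with at least 5 Opn4 UMIs (127 to 173) and 121 in RGC with at least 50 Cartpt UMIs (107 to 136). It was 95.7 in RGC with at least 2 Tbx20 UMIs (78.5 to 116) and 76.3 in Foxp2 RGC (63.2 to 91.3). Opn4 encodes melanopsin, Cartpt a neuropeptide precursor found in direction-selective RGC, and Tbx20 a T-box transcription factor. The subsets share barcodes, and the highest barcode in each of the Pvalb and Spp1 subsets held 29 Nefh UMIs. The place of Spp1 RGC depends on depth: at 12000 UMIs the mean was 1.50 Nefh UMIs there and 2.42 in Pvalb RGC. Each neighbouring pair in this order had overlapping intervals, while Pvalb and Foxp2 RGC, at its ends, did not overlap.

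Prph was the member with the sharpest division among RGC. Of 912 RGC barcodes, 775 had 0 Prph UMIs, 67 had 1, 29 had 2 to 4 and 41 had 5 or more. These 41 held 84.3% of all Prph UMIs of RGC, and 13 of them had 20 or more, up to 57. Most barcodes with much Prph met at least 1 of 3 subset thresholds, though not each threshold alone went with high Prph, as given below. Of the 41, 34 met the threshold for Spp1, Opn4 or Tbx20, and 7 met none, where 88 of all 912 RGC met at least 1. This grouping was chosen after the values were seen and is given without a test.

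**Figure D5:**
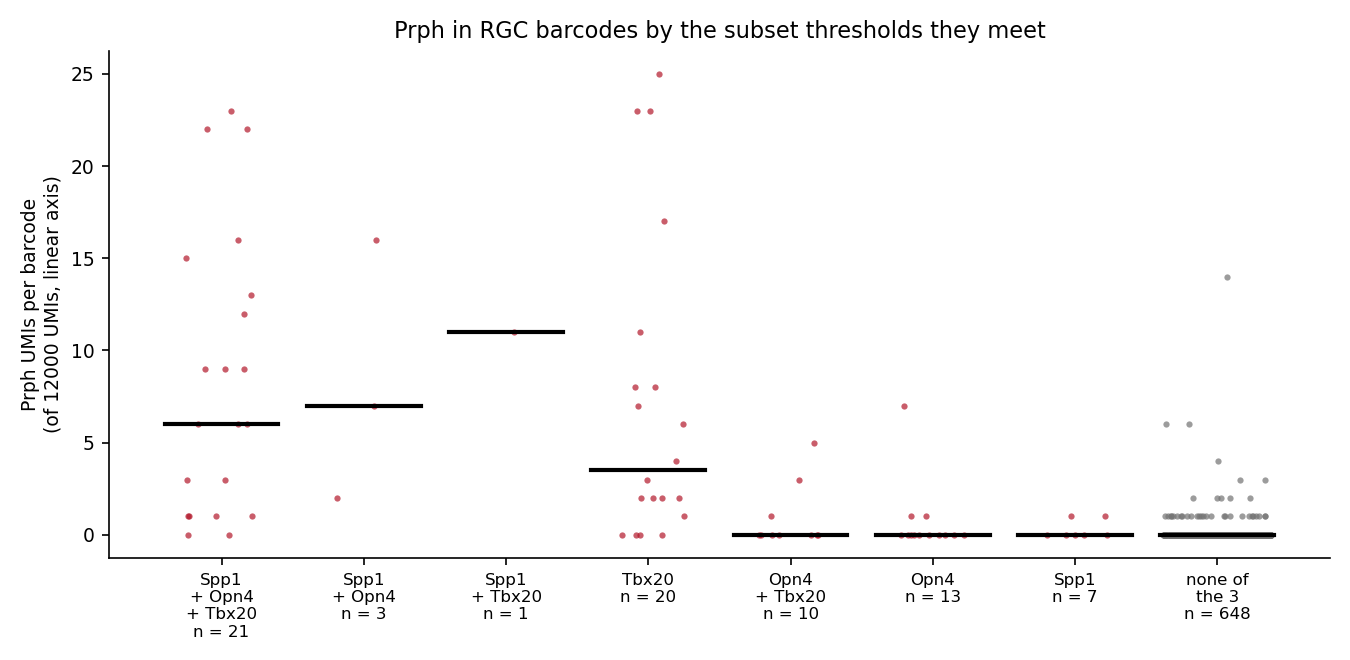
Prph UMIs per RGC barcode thinned to 12000 UMIs, by which of the Spp1, Opn4 and Tbx20 thresholds the barcode met, with black lines at the medians. The 21 barcodes that met all 3 have a median of 6 and the 20 that met Tbx20 alone a median of 3.5, while the 648 that met none have a median of 0 and a highest value of 14.

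The level of Prph differed between combinations of these thresholds. In the 21 RGC barcodes that met all 3 thresholds it was 760 CPM (688 to 837), with a median of 17 UMIs and a range of 0 to 57, and these barcodes held 46.1% of the Prph UMIs of RGC. In the 27 that met only the Tbx20 threshold it was 575 CPM (501 to 658), with a UMI in 88.9% of them and 23.9% of the UMIs. By contrast, the 7 barcodes with only the Spp1 threshold had 13.2 CPM (2.72 to 38.6) and the 17 with only the Opn4 threshold 41.1 CPM (20.5 to 73.5). The 12 barcodes that met Opn4 and Tbx20 but not Spp1 had 96.4 CPM, the 3 that met Spp1 and Opn4 had 538 CPM, and the 1 that met Spp1 and Tbx20 had 847 CPM. The 824 barcodes that met none had 12.2 CPM (10.4 to 14.2), a UMI in 9.71% of them, and 18.8% of the UMIs.

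The ratio for Spp1 RGC therefore covers barcodes of more than 1 kind. Prph was 546 CPM in Spp1 RGC and 28.2 in other RGC, a ratio of 19.4 (16.9 to 22.1). At 12000 UMIs the median was 4.5 in Spp1 RGC and 0 in other RGC, and a UMI was found in 78.1% of Spp1 RGC and 8.68% of other RGC. Of the 32 Spp1 RGC, 24 also met the Opn4 and 22 the Tbx20 threshold. The low Prph levels of Pvalb RGC (6.65 CPM) and Foxp2 RGC (5.77 CPM) are read against the same division. The 824 RGC with none of the 3 thresholds were at 12.2 CPM, and no Pvalb barcode met the Tbx20 threshold.

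Tbx20 and Opn4 RGC had a high summed level of Prph and less Nefl and Nefm than other RGC. Spp1 RGC, as given above, had more Nefl and Nefm. In Opn4 RGC, high Prph and low Nefl lay largely in different barcodes. After thinning to 12000 UMIs, the 13 that met Opn4 alone had 5 to 22 Nefl UMIs and a median Prph of 0. The 10 that met Opn4 and Tbx20 had 5 to 17 and a median of 0. The 21 that met Spp1, Opn4 and Tbx20 had 16 to 46 and a median of 6. The 20 that met Tbx20 alone had 7 to 35 and a median of 3.5. In the 61 Tbx20 RGC, Prph was 585 CPM, against 16.1 in other RGC, a ratio of 36.4 (31.3 to 42.4), while Nefl was 0.813 and Nefm 0.596 (0.538 to 0.659) of the level in other RGC. In the 53 Opn4 RGC, Prph was 16.0 times (13.9 to 18.2), Nefl 0.833 and Nefm 0.609 (0.549 to 0.673) of the level in other RGC. Nefh was 0.890 (0.726 to 1.08) in Tbx20 RGC and 1.44 (1.22 to 1.69) in Opn4 RGC, where 1 barcode held 29 of 163 UMIs. Ina was 0.945 in Tbx20 RGC and 1.00 in Opn4 RGC. Vim was 1.60 times (1.12 to 2.23) in Tbx20 RGC and 1.89 times (1.35 to 2.58) in Opn4 RGC the level in other RGC, at 35.5 and 41.1 CPM. Cones had 14.7 CPM (5.39 to 32.0). Microglia had 67.4 CPM, but 27 of their 41 Vim UMIs lay in 1 barcode, so that value is not used as a background here. In each of these 2 subsets 1 member, Prph, was 2-fold or more higher, where 2.29% of 9619 genes were for Tbx20 and 2.59% for Opn4, and 0 were lower, where 5.31% and 6.23% of genes were. In Cartpt RGC Prph was 1.84 CPM, against 66.8 in other RGC, a ratio of 0.0276 (0.00749 to 0.0708), and it was the 1 member past 2-fold, where 0.707% of genes were higher and 3.21% lower.

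The axon cytoskeleton around the filaments was described from 6 lists of 61 genes. Against horizontal barcodes, 22 of the 47 genes with enough UMIs were 2-fold or more higher in RGC and 0 lower, where 19% of all genes were higher and 8.78% lower. Among other intermediate filament genes 2 of 5 were higher, Synm (synemin, 2.68-fold) and Lmna (a nuclear lamin, 2.27-fold), and the median log2 ratio was 0.72, against 0.12 for all genes. Of linkers and turnover genes 2 of 10 were higher, Trim2 (a ubiquitin ligase known to act on the light subunit, 4.37-fold) and Uchl1 (a neuronal ubiquitin hydrolase, 3.77-fold), with a median of 0.36, a count close to the share of all genes. Of transport genes 5 of 9 were higher, led by Dynll1 (a dynein light chain, 5.15-fold), Klc2 (2.61-fold) and Kif5a (2.47-fold), the kinesin chain tied to neurofilament transport, with a median of 1.19. Of microtubule genes 8 of 15 were higher, among them Map1b (10.6-fold), Stmn1 (10.4-fold) and Tubb3 (6.10-fold), with a median of 1.07. Of axon and membrane skeleton genes 5 of 8 were higher, with Gap43 (12.5-fold) and Ank3 (ankyrin of the axon initial segment, 3.42-fold), and a median of 1.59. Thy1 (28.2-fold) and Sncg (11.3-fold) in that list are also RGC markers.

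Against amacrine barcodes 18 of 47 listed genes were 2-fold or more higher in RGC and 1 lower, where 12.2% of all genes were higher and 7.99% lower. The higher ones were led by Sncg (35.7-fold), Tubb3 (6.21-fold), Tubb2b (5.82-fold) and Stmn2 (5.36-fold), and Kif5a was 5.12-fold higher. The lower one was Map2, a dendritic microtubule protein, at 0.468. Against Müller barcodes 32 of 50 were higher, among them Tubb3 (50.9-fold), Stmn2 (34.3-fold), Uchl1 (29.0-fold) and Kif5a (14.9-fold), and 3 were lower. Of all genes 30.7% were higher and 13.9% lower in that comparison. The lower 3 were glial stress genes, Cp (0.00141), Cd44 (0.0242) and Serpina3n (0.0808). In the Spp1, Pvalb and Foxp2 comparisons 0 of 47 listed genes passed 2-fold in either direction, where 0.645% to 2.2% of all genes were higher and 1.94% to 5.57% lower, so a count of 0 is near the background. The medians of the lists lay between -0.31 and 0.23 on the log2 scale there, against -0.03 to 0.02 for all genes.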

How the data were processed

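Single-cell libraries from GFP-sorted cells of 4 retinas were prepared by 10x Chromium V2 chemistry, which reads 3′ ends, per the labels' protocols. The submitters' processing notes name Cell Ranger, Seurat 2.2 and mm10, and what else the authors did to call cells and count is not given in the sources used here. Their deposited matrix holds raw UMI counts, 1 value for each gene and barcode. All barcodes carry 1 suffix, so the matrix was treated as 1 sample, and the planned test on counts per retina could not be run.

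A minimum of 500 genes and a mitochondrial share under 10% left 2699 of 3237 barcodes. Scrublet in scanpy 1.11.5 (seed 0) called 63 of these doublets (2.33%), leaving 2636, of which 418 fell in none of the 7 classes. UMIs were summed per class and scaled to CPM, with exact Poisson intervals. Ratios carry exact conditional intervals and shares exact Clopper-Pearson intervals, all at 95%, for counting error only. Calls were ratios of 2 or more, or 0.5 or less, for genes whose UMIs in both groups together reached 100, with a floor of 3 counts. Shares between classes were taken after thinning each barcode to 3000 UMIs, and values between RGC subsets after thinning to 12000, which left out 189 of 912 RGC. The steps were tested on simulated data.

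The members and lists were chosen with earlier results of these data known. Named genes were the 8 members, up to 4 genes per list and direction past 2-fold, and the 5 genes of highest rank correlation per neuronal member, of which 1 is not reported here. Alternatives changed the cell filter, doublet removal, class overlap, weighting, thresholds, scaling, depth, the UMI minimum and the barcode with the most UMIs. Scripts ran in Python 3.11.15 with pandas 2.3.3, numpy 2.4.6 and scipy 1.17.1, and with matplotlib 3.10.9 and anndata 0.12.19.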

Additional observations from a re-analysis of the deposited data

How the results depend on the processing

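No paired analysis was possible because no barcode is tied to a retina, and leaving out each retina was not run for the same reason. Without replicates, no value carries the spread between animals. The 25 ratios past 2-fold stayed past it the same way in all 232 alternative values. They include triplet sums and ratios under the UMI minimum for calls: Gfap and Nes for RGC to Müller, and Gfap for RGC to amacrine. The last rests on 5 UMIs in RGC and 2 in amacrine barcodes, with an interval of 0.0204 to 1.31. The 2 amacrine UMIs lay in 1 barcode, and leaving it out leaves no amacrine UMI for a ratio. The stability of that ratio is therefore not read. Of 204 alternative values of the 21 ratios within 2-fold, 187 stayed within it on the same side of 1, 9 passed it and 8 changed side of 1, all of them Ina or Vim in Foxp2 RGC or Gfap between RGC and horizontal barcodes, which did not differ beyond counting error. Those that passed were Nefh (RGC to amacrine or horizontal), Vim (RGC to amacrine) and Vim in Spp1 RGC, 2.00 with doubled thresholds.

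With a mitochondrial maximum of 5% the triplet ratio was 6.23 for RGC to horizontal and 52.3 for RGC to Müller, and the Vim ratio of RGC to Müller was 0.0219. That Vim ratio was 0.0460 with doublets kept, 0.0300 with doubled thresholds and 0.0299 with median-of-ratios scaling. The triplet ratio of RGC to horizontal was 4.85 with barcodes weighted equally, 5.55 with doubled thresholds and 4.80 with median-of-ratios scaling. That of RGC to amacrine was 5.61 with barcodes meeting several rules kept and 13.7 with doubled thresholds, and that of RGC to Müller 46.3 with doubled thresholds. The Nefh share in Spp1 RGC was 4.69% with equal weight, 4.10% after thinning and 4.04% with thresholds on thinned counts. The triplet ratio was 1.47 (doubled thresholds) and 1.45 (thresholds on thinned counts) in Pvalb RGC and 1.09 (equal weight) in Foxp2 RGC. Leaving out Müller barcodes with 5 or more vascular marker UMIs, an alternative chosen after seeing the data that kept 166, gave 34.4 for the triplet and 0.0365 for Vim.

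Counts of genes past 2-fold followed the UMI minimum. With 300 UMIs, 1292 genes were higher and 578 lower in RGC than in horizontal, 778 and 351 than in amacrine barcodes, and 658 lower than in Müller barcodes. With 30 UMIs, 1426 were lower than in amacrine and 2223 than in Müller barcodes. For Spp1 RGC 481 were higher and 878 lower at 30 UMIs, and 78 and 201 at 300. For Pvalb RGC these were 193 and 482 at 30 UMIs, and 39 and 73 at 300, and for Foxp2 RGC 179 and 721, and 27 and 126.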

Other observations

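Ina was the member with the clearest level in bipolar barcodes, at 165 CPM (146 to 187) with a UMI in 36.1% of them at 3000 UMIs (30.9% to 41.6%), against 7.53% of microglia (3.82% to 13.1%). Nefl in the same bipolar barcodes was 47.3 CPM (37.1 to 59.4) and Nefh 5.75 CPM (2.63 to 10.9), both level with microglia.

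Synm, which encodes the filament protein synemin, was the listed gene that passed 2-fold within RGC outside the Spp1, Pvalb and Foxp2 comparisons. It was 40.2 CPM in Opn4 RGC and 19.2 in other RGC, a ratio of 2.09 (1.49 to 2.89). In Cartpt RGC it was 11.1 CPM, against 22.3 in other RGC, a ratio of 0.497 (0.313 to 0.754). In each comparison it was 1 of 47 listed genes. Of all 9619 genes, 2.59% were 2-fold or more higher in Opn4 RGC and 3.21% lower in Cartpt RGC, so these counts are near the background. Cartpt RGC had 1.22 times the Nefm and 1.06 times the Nefl of other RGC, with Nefh at 1.16. In Tbx20 and Opn4 RGC there were 4.65 and 4.67 Nefl UMIs per Nefm UMI, against 3.47 over all RGC, and 30.1 and 30.5 Ina UMIs per 100 triplet UMIs, against 24.8.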
